A study of Arabidopsis thaliana with 16 samples.

Results

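The transcript levels compared here are those of *Arabidopsis thaliana* leaves after 24 h of exposure to the volatiles of Lima bean plants that leafminer larvae had damaged, set against leaves exposed for the same 24 h to the volatiles of healthy Lima bean plants. The members are the 4 arrays of this time point, of 16 arrays in the series, taken by their labels: 2 volatile samples and 2 control samples. All 4 samples were leaves of 4-week-old plants of the wild type Col-0, each sample held tissue of at least 8 plants, and each was hybridised to 1 Affymetrix ATH1 array. The controls were therefore also exposed to a neighbouring bean plant, so the contrast is between damaged and healthy emitters, not between volatiles and clean air. The other 12 arrays were a 48 h exposure of the same kind, with 3 volatile and 3 control samples, and leaves fed on by leafminers or left healthy, with 3 samples each. The study's methods call the replicates independent but do not say whether each came from an exposure of its own, so p-values cover the spread among these samples alone, part of which may be technical.

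Plants under attack by herbivores release green leaf volatiles and terpenes, and intact neighbours can take up these cues and alter their own defences. In *Arabidopsis*, the jasmonate pathway starts from fatty acids of the chloroplast and switches on genes against chewing insects, while ethylene acts through ethylene response factors and, together with jasmonate, induces antifungal peptides such as the defensin PDF1.2 and basic chitinases. Salicylate, marked by PR-1, serves mainly against pathogens that live on living tissue. Genes for calcium sensors, glutathione transferases, glycosyltransferases and enzymes that loosen the cell wall respond within hours to touch, wounding and foreign chemicals.

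The volatile arrays were brighter as a whole. The median signal of the deposited values was 26.6 and 23.1 on the volatile arrays, against 20.8 and 19.2 on the control arrays, and without scaling the median log2 change over all probe sets was 0.31. All values below are therefore log2 signals after quantile scaling of the 16 arrays, where 0 is the floor set at a signal of 1, and a change is the volatile mean minus the control mean on this scale, with a median of 0.00 over all 22746 probe sets tested. The files give no detection calls, so a probe set near the floor cannot be told from background. Ratios of 3' to 5' probe sets, a sign of RNA integrity, were 2.42 and 2.24 for actin on the volatile arrays and 2.55 and 2.22 on the control arrays. Those for ubiquitin were 1.41 and 1.26 on the volatile arrays and 1.22 and 1.12 on the control arrays, and those for GAPDH 0.91 and 0.94 on the volatile arrays and 1.00 and 1.05 on the control arrays. The actin ratios overlapped between the groups and the other ratios did not, and their part in the results was not tested. The nuclear photosystem genes, which mark green leaf tissue, had medians of 11.14 and 11.18 on the volatile arrays and 11.23 and 11.15 on the control arrays.

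The volatile arrays stood apart from each other in the transcripts of the chloroplast genome. The median of 69 chloroplast-encoded probe sets was 8.18 in volatile replicate 1 and 6.01 in volatile replicate 2, against 7.50 and 7.34 in the controls. In replicate 1, 57 of the 69 lay above the mean of the controls, and in replicate 2, 66 lay below it. The transcript of atpA, a subunit of the chloroplast ATP synthase, had 9.25 and 6.14 on the volatile arrays and 8.62 and 8.89 on the control arrays. That of ccsA, which serves cytochrome c assembly, had 10.22 and 7.56 on the volatile arrays and 8.44 and 7.91 on the control arrays. On both transcripts the volatile pair enclosed the controls, and the median change of the chloroplast-encoded set, -0.15, is a mean of a higher and a lower array. At 48 h the volatile arrays had chloroplast medians of 7.05, 6.84 and 6.40 and the control arrays 7.52, 7.51 and 7.68. The part of this difference in the results that follow was not tested. Counts of calls, of large changes at above-median signal and of differences between the times are given with and without volatile replicate 2, and the counts over gene lists rest on both volatile arrays.

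**Figure D1:**
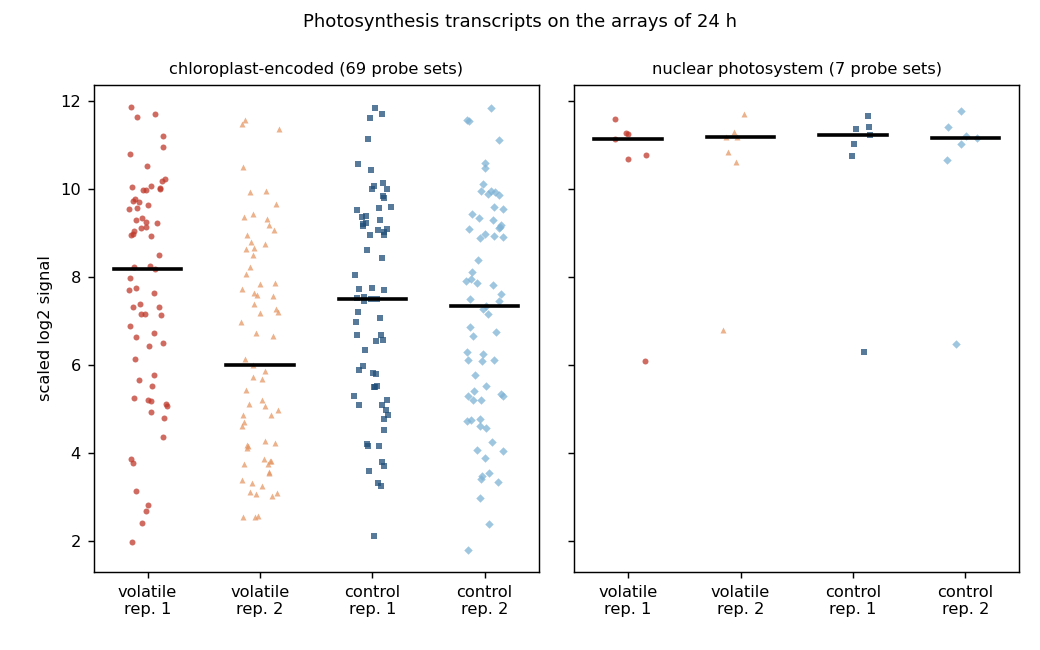
Scaled log2 signals of the 69 chloroplast-encoded probe sets (left) and 7 nuclear photosystem probe sets (right) on each array of 24 h, volatile arrays left of control arrays. Points are probe sets and bars are medians, which are 8.18 and 6.01 on the volatile arrays and 7.50 and 7.34 on the control arrays for the chloroplast-encoded set, and between 11.14 and 11.23 for the nuclear set.

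After 24 h, few transcripts differed beyond the spread between replicates. A probe set was called where limma's adjusted p did not exceed 0.05 and its level differed 2-fold or more. By this rule 12 were called (0.0528% of those tested), of which 5 rose (0.022%) and 7 fell (0.0308%). At an unadjusted p under 0.05 there were 616 higher (2.71%) and 697 lower (3.06%) probe sets. Without scaling, 1 was called up and 3 down, with 2565 higher and 301 lower at an unadjusted p under 0.05, and with median scaling 2 up and 12 down. At 48 h, with 3 arrays a group, the same rule called 184 up (0.809%) and 132 down (0.58%). The calls depended on single arrays: 20 up and 38 down were called without volatile replicate 1, 23 and 3 without volatile replicate 2, 5 and 24 without control replicate 1, and 7 and 19 without control replicate 2. Of the 12 probe sets called with all arrays, 9, 3, 4 and 5 were called in these 4 fits. With the 4 arrays of 24 h alone none was called, with 846 higher and 899 lower at an unadjusted p under 0.05. An exact permutation test of 2 against 2 arrays cannot give a two-sided p below 0.333.

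The 4 arrays were only slightly more alike within groups than across them. Over all probe sets Pearson's r was 0.969 between the volatile arrays and 0.969 between the control arrays, and 0.965 to 0.967 between arrays of different groups. Among probe sets whose higher group averaged at least the median signal, r was 0.974 and 0.977 within the groups. It was 0.967 to 0.971 between arrays of different groups. These are correlations across probe sets, which are not independent replicates. Both volatile arrays lay above both controls in 17.1% of the probe sets and below both in 15.9%, and in 47.1% and 5.33% without scaling. The SD between replicates fell with signal: in the dimmest 25% of the probe sets it was 0.78 between the volatile arrays and 0.78 between the control arrays, and in the brightest 25% it was 0.21 between the volatile arrays and 0.20 between the control arrays. The calls lay mostly at low signal, with 8 of the 12 in the dimmest 25% and 0 in the brightest, where 9.50% and 3.64% of the probe sets had an unadjusted p under 0.05. There were 1667 probe sets with a change of at least 2-fold (7.33%). Of these, 1555 had a mean in their higher group below the median signal of all probe sets, 4.62 on the log2 scale. Of the same 1667, 1267 (76.0%) did not overlap between the groups.

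**Figure D2:**
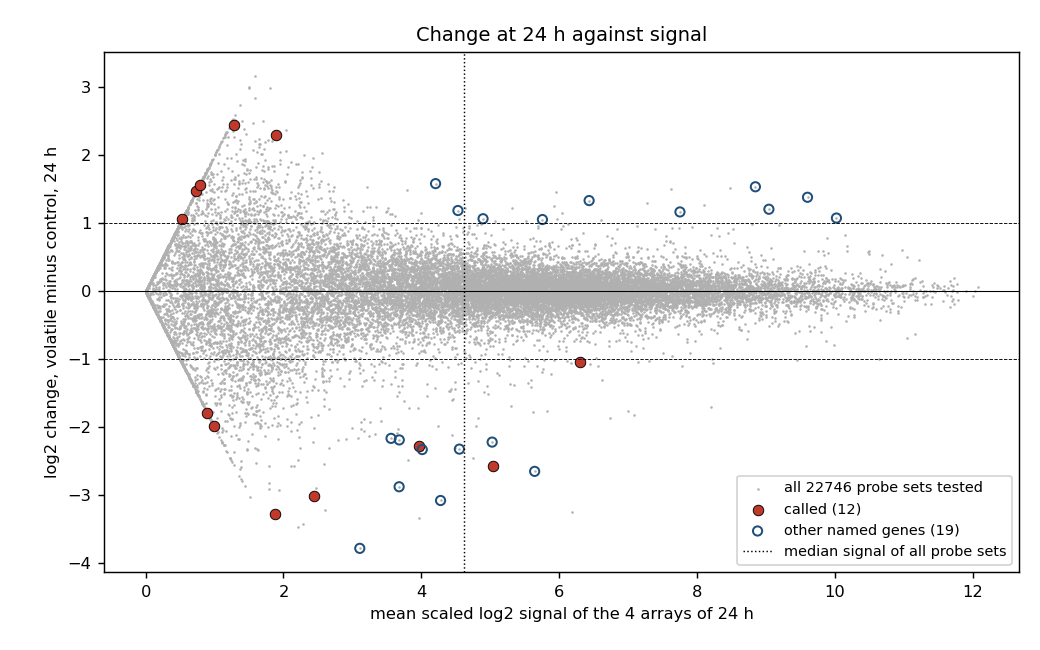
Log2 change at 24 h, volatile minus control, against the mean scaled log2 signal of the 4 arrays for the 22746 probe sets tested. Filled points are the 12 called probe sets, open points the other 19 named genes with the largest differences, dashed lines a 2-fold change and the dotted line the median signal. The cloud widens to the left, and large differences right of the dotted line are few.

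Among the probe sets with above-median signal, large differences ran mostly toward lower levels in the volatile samples. Of 112 such probe sets with a change of at least 2-fold, 24 were higher and 88 lower. All of the 32 with a change of at least 3-fold were lower, and 31 of them did not overlap between the groups. At any signal, 472 of 476 probe sets with a change of at least 3-fold did not overlap (99.2%). The count of 31 therefore says little about how well the replicates agreed. Signal was judged here on the mean of the higher group, so genes such as XTH18 entered through their control arrays alone, and these counts are a description. Judged on the mean of all 16 arrays, 21 were higher and 75 lower by 2-fold, and 0 and 24 by 3-fold, and judged on the 4 arrays of 24 h, 21 were higher and 53 lower by 2-fold, and 0 and 14 by 3-fold. The split rested on volatile replicate 2. Set against the mean of the controls, replicate 1 alone had 78 higher and 69 lower by 2-fold, and 19 and 25 by 3-fold, while replicate 2 alone had 23 higher and 172 lower by 2-fold, and 0 and 69 by 3-fold. Between the volatile arrays themselves, 57 of these probe sets were at least 3-fold higher in replicate 1 and 0 in replicate 2, whereas 1 differed that far between the control arrays. Without the chloroplast-encoded probe sets the pooled counts were 24 higher and 83 lower by 2-fold, and 0 and 32 by 3-fold. The split also moved with the scaling: without it the counts were 122 higher and 42 lower by 2-fold, and 11 and 17 by 3-fold, and with median scaling 32 and 82, and 2 and 33.

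Of the 7 probe sets that fell, the one with a known gene symbol was CML37, a calmodulin-like calcium sensor that responds to wounding. CML37 had 0.81 and 1.07 on the volatile arrays, against 4.21 and 3.68 on the control arrays, a change of -3.0 ± 0.41 (SE; adjusted p = 0.0268). Without scaling its change was -2.85 and its adjusted p 0.0701 (limma). Both volatile arrays were near the floor and far below both controls. Its level was 4.14 ± 0.04 in the 48 h volatile samples and 4.13 ± 0.38 in the 48 h controls (SD, n = 3 each), so the 24 h volatile samples were the low ones among the 4 groups of the volatile experiment. In the feeding experiment CML37 averaged 5.25 in fed leaves and 0.17 in healthy leaves.

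The gene AT1G43910, which the tables used here do not describe, had 4.12 and 3.40 on the volatile arrays, against 6.53 and 6.13 on the control arrays. The change was -2.57 ± 0.36 (SE; adjusted p = 0.0268), a 5.94-fold lower signal in the volatile samples, and both volatile arrays lay clearly below both controls. Without scaling its change was -2.26 and its adjusted p 0.213 (limma). At 48 h the same gene rose by 1.53 on the log2 scale (adjusted p = 0.0177), with 7.90 ± 0.07 in volatile samples and 6.37 ± 0.58 in controls (SD, n = 3 each). Among the named genes it is the one called at both times in opposite directions.

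The other probe sets that fell have no gene name in the tables used, or belong to pseudogenes. The probe set 250983_at had 0.49 and 0.00 on the volatile arrays and 3.25 and 3.78 on the control arrays (change -3.27 ± 0.40, SE; adjusted p = 0.023). The probe set 259428_at had 3.03 and 2.62 on the volatile arrays and 5.30 and 4.89 on the control arrays (change -2.27 ± 0.34, SE; adjusted p = 0.0403). Their controls sat at similar levels at 48 h, 3.82 and 5.18 on average. The probe set 256185_at, the brightest of those called, had 5.79 and 5.77 on the volatile arrays and 6.89 and 6.75 on the control arrays, a change of -1.04 ± 0.14 (SE; adjusted p = 0.0268). Without scaling its change was -0.71 and its adjusted p 0.318. The pseudogenes AT3G30240 and AT3G30810 were at the floor on both volatile arrays, with 1.72 and 2.23 for the first and 1.88 and 1.71 for the second on the control arrays. Since both are also at the floor in all groups of 48 h, these are faint signals on the 24 h control arrays, and no fold is given against the floor. They were the probe sets that stayed called without any single one of the 4 arrays.

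None of the 5 probe sets that rose had above-median signal. AT2G37070, whose function the tables do not give, had 2.92 and 3.18 on the volatile arrays, against 0.45 and 1.04 on the control arrays, a change of 2.30 ± 0.31 (SE; adjusted p = 0.0268). It was also higher at 48 h, by 1.82 (adjusted p = 0.00505), with 1.99 ± 0.39 in volatile samples and 0.17 ± 0.27 in controls (SD, n = 3 each). It was the only one of the 5 whose rise was called at both times. The probe set 250717_at had 2.61 and 2.40 on the volatile arrays and 0.11 and 0.00 on the control arrays, while the 48 h samples were at 2.01 ± 0.49 with volatiles and 2.44 ± 0.23 in controls (SD, n = 3 each). Here the 24 h controls were low against every other group. The transcribed pseudogene AT1G60180 and the probe set 260093_at were at the floor on both control arrays and between 0.98 and 1.66 on the volatile arrays, and both were at the floor in the 48 h groups. The probe set 266301_at had 1.21 and 1.93 on the volatile arrays and 0.00 and 0.00 on the control arrays. No fold is given for these.

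Of the 10 named genes with the largest decreases at above-median signal, only AT1G43910 passed the test. XTH18, an enzyme that cuts and rejoins xyloglucan in the cell wall, had 2.43 and 0.00 on the volatile arrays and 5.21 and 4.78 on the control arrays. Its change, -3.78 ± 0.59 (SE), narrowly missed the threshold (adjusted p = 0.0505). It was the largest change in size among all probe sets, and the volatile replicates differed by over 2 log2 units. GSTU22, a glutathione transferase of the tau class, had 2.15 and 3.03 on the volatile arrays and 4.78 and 4.76 on the control arrays (change -2.18 ± 1.14, SE; adjusted p = 0.955). The fit pools the spread over all groups, and the 48 h controls of GSTU22 had an SD of 2.02. The transcribed pseudogene AT3G48650 had 3.01 and 2.47 on the volatile arrays and 5.90 and 5.73 on the control arrays (change -3.08 ± 0.54, SE; adjusted p = 0.0797).

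The other members of this group were AT3G01830, AT2G04050, AT4G39670, AT1G57630, AT5G52760 and AT4G28460, with changes between -2.87 and -2.16. The study lists AT2G04050 under response to chemical stimulus, and the tables used give no function for the others. In 3 of them, AT3G01830, AT4G39670 and AT1G57630, volatile replicate 2 was the lower array by over 2 log2 units: AT3G01830, for example, had 3.70 and 0.79 on the volatile arrays and 5.58 and 4.64 on the control arrays. AT5G52760 had closer replicates, 4.30 and 3.54 on the volatile arrays and 6.18 and 6.09 on the control arrays. In the feeding experiment, which shares no array with these, fed leaves were above healthy leaves on average for 9 of these 10 and likewise for 9 of the 10 genes with the largest increases, against 42.8% of all probe sets with above-median signal. AT4G39670, for example, averaged 6.90 in fed leaves and 0.84 in healthy leaves, and 2.85 in volatile samples and 5.18 in controls at 24 h.

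The 10 named genes with the largest increases at above-median signal included defence genes, and none passed the test. PDF1.2, a defensin induced jointly by jasmonate and ethylene, had 11.04 and 9.54 on the volatile arrays and 9.20 and 8.62 on the control arrays. Its groups did not overlap, but the SD between the volatile replicates was 1.06 and the change was 1.38 ± 0.80 (SE; adjusted p = 0.996). The related PDF1.2b had 11.12 and 10.00 on the volatile arrays and 9.73 and 9.23 on the control arrays, on a probe set that can also bind transcripts of its relatives. AT4G16260, which the study lists under response to stress, had 10.14 and 9.09 on the volatile arrays and 7.97 and 8.18 on the control arrays (change 1.54 ± 0.47, SE; adjusted p = 0.535). SUFE2, which activates the release of sulfur for iron-sulfur clusters, had 7.31 and 6.89 on the volatile arrays and 5.58 and 5.95 on the control arrays (change 1.33 ± 0.41, SE; adjusted p = 0.535). AT3G23550 had 9.94 and 9.34 on the volatile arrays and 8.34 and 8.54 on the control arrays, and AT4G24350 had 8.51 and 8.16 on the volatile arrays and 7.26 and 7.07 on the control arrays. AT3G63090, AT1G52710, AT1G13460 and AT4G15680 were higher by 1.58, 1.19, 1.07 and 1.06.

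**Figure D3:**
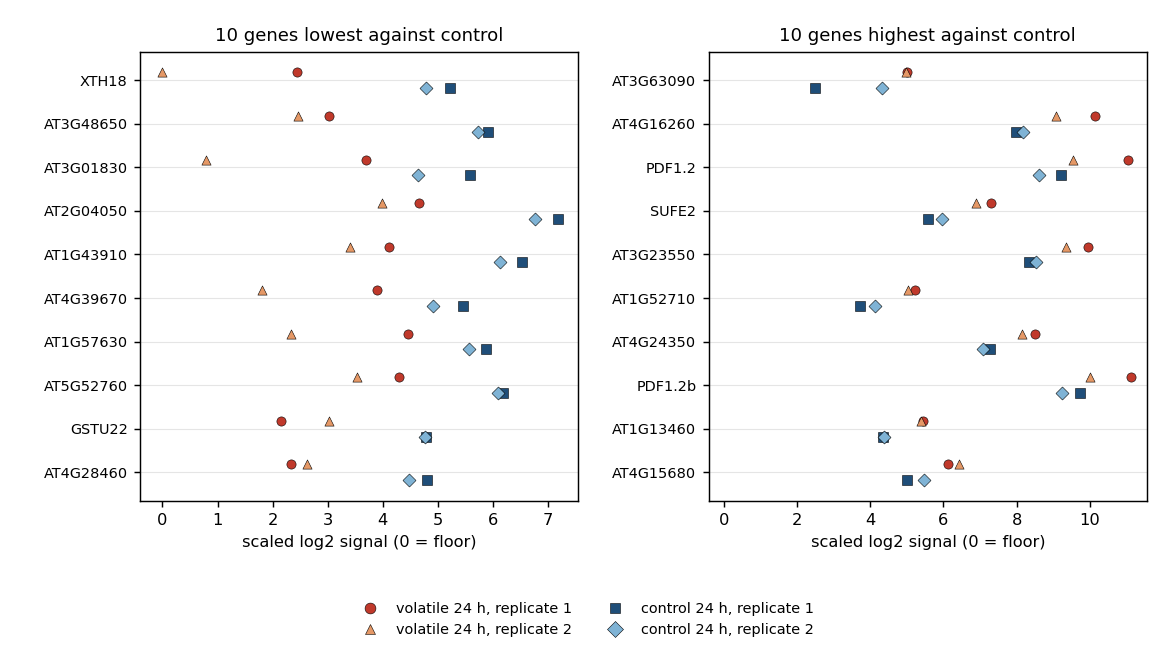
Scaled log2 signal on each array of 24 h of the 10 named genes with the largest decrease (left) and the 10 with the largest increase (right) among those with above-median signal and no overlap between groups, volatile arrays drawn above control arrays in each row. Of the 20, only AT1G43910 was called, and the volatile replicates of XTH18, AT3G01830, AT4G39670 and AT1G57630 lie more than 2 log2 units apart.

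The study's methods name a set of genes for its quantitative PCR. Some were chosen for their response to volatiles or to feeding on its arrays, so their direction is not independent evidence. Others were picked as members of the jasmonate and ethylene pathways, or at random from genes without a significant response. The set therefore mixes responding genes with others, and a median over it is no measure of the responding genes alone. Of its 35 probe sets, none was called at 24 h by limma (4 higher and 2 lower at an unadjusted p under 0.05), 9 were higher and 3 lower without overlap between groups (17.1% and 15.9% of all probe sets), and their median change was 0.01, beside 0.57 at 48 h. At 48 h 5 of them were called. The study also listed 186 probe sets by function among its genes up-regulated at 48 h. Their median change of 0.99 at 48 h therefore followed from that choice. At 24 h none of the 186 was called by limma, and their median change was 0.11. Without overlap 61 were higher and 29 lower, beside 17.1% and 15.9% of all probe sets. At an unadjusted p under 0.05, 23 were higher and 9 lower, beside 2.71% and 3.06% of all probe sets.

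Of the ethylene response and element binding factors in this set, none passed the test, and 2 did not overlap between the groups. The ethylene response factor 260783_at, a transcription factor of the AP2 family, had 8.78 and 7.96 on the volatile arrays and 6.94 and 6.79 on the control arrays, a change of 1.5 ± 0.36 (SE; adjusted p = 0.319). Ethylene responsive element binding factor 2 had 5.20 and 5.31 on the volatile arrays and 4.60 and 5.08 on the control arrays. The groups of ethylene responsive element binding factor 4 overlapped, with 4.00 and 3.55 on the volatile arrays and 3.59 and 3.15 on the control arrays. Those of the element binding factor 261470_at also overlapped, with 5.43 and 4.70 on the volatile arrays and 4.58 and 4.92 on the control arrays. Among the products of the pathway, basic chitinase, which degrades fungal walls, had 7.45 and 6.80 on the volatile arrays and 5.63 and 6.52 on the control arrays (change 1.05 ± 0.55, SE). The chitin-binding hevein-like PR-4 had 11.47 and 11.08 on the volatile arrays and 10.50 and 10.82 on the control arrays (change 0.61 ± 0.31, SE). For both proteins the lower volatile array was close above the higher control array.

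Of 14 jasmonate synthesis genes listed, 1 had a named probe set, so the enzymes below go by the labels of the study's set. The pathway is therefore covered in part. None of these enzymes passed the test, and both volatile arrays lay above both controls for LOX2 and allene oxide synthase, which act early. For a further putative lipoxygenase of the set, 261037_at, the groups overlapped. It had 3.51 and 3.20 on the volatile arrays and 3.41 and 3.11 on the control arrays (change 0.10 ± 0.36, SE). The chloroplast lipoxygenase LOX2, which makes the first intermediate, had 8.95 and 9.14 on the volatile arrays and 8.54 and 8.24 on the control arrays (change 0.65 ± 0.23, SE; adjusted p = 0.638). Allene oxide synthase, the next enzyme, had 7.33 and 7.29 on the volatile arrays and 7.0 and 6.80 on the control arrays (change 0.40 ± 0.23, SE; adjusted p = 0.984). A gene that the study labels hydroperoxide lyase-like had 4.69 and 4.72 on the volatile arrays and 4.09 and 4.20 on the control arrays (change 0.55 ± 0.19, SE; adjusted p = 0.62). Enzymes of that class turn the same substrate into green leaf volatiles, and activity in these plants was not measured. LOX2, allene oxide synthase and the hydroperoxide lyase-like gene had replicates close together and no overlap, with changes of under 1 log2 unit. For 12-oxophytodienoate reductase OPR3, which acts after allene oxide synthase, the values were 7.39 and 7.42 on the volatile arrays and 7.32 and 7.48 on the control arrays (change 0.01 ± 0.20, SE), and for its relative OPR2 the change was -0.08 ± 0.30 (SE). Without scaling the change of OPR2 was 0.30, and its probe set may also bind transcripts of its relatives.

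Downstream of jasmonate, 3 of 22 genes listed had a named probe set, JMT, MYC3 and MYC4. None was called, and all 3 were higher without overlap (17.1% of all probe sets were). Vegetative storage protein 1, a jasmonate-induced protein of the study's set, went the other way. It had 6.68 and 6.88 on the volatile arrays and 7.56 and 6.99 on the control arrays, a change of -0.49 ± 0.54 (SE). Without scaling its change was -0.13, and its probe set may also bind transcripts of its relatives. JMT, the enzyme that makes methyl jasmonate, had 0.93 and 1.88 on the volatile arrays and was at the floor on both control arrays. The transcription factors MYC3 and MYC4, which JAZ repressors hold in check, had changes of 0.20 ± 0.26 and 0.27 ± 0.31 (SE). The salicylate marker PR-1 had 6.33 and 6.53 on the volatile arrays and 6.15 and 7.50 on the control arrays, an overlap that leaves its change of -0.39 ± 1.07 (SE) undetermined. COL2, a relative of the flowering regulator CONSTANS, had 5.38 and 5.17 on the volatile arrays and 6.48 and 6.10 on the control arrays (change -1.02 ± 0.47, SE; adjusted p = 0.862), the lowest of the 35.

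Among the early stress genes and genes of cell wall loosening, CML37 was the one probe set that passed the test with all arrays. XTH18 lay just beyond the threshold (limma, adjusted p = 0.0268 for CML37 and 0.0505 for XTH18), so the 2 are not set apart by this. The counts without overlap that follow, here and for the other families, stand beside 17.1% higher and 15.9% lower over all probe sets, and no test of a family was made. Each family holds only members with a named probe set, so members can be missing. Of 12 early stress and touch genes, 4 had a named probe set. CML37 was called down, its relative CML38 had 3.56 and 2.32 on the volatile arrays and 4.76 and 4.07 on the control arrays (change -1.47 ± 0.62, SE; adjusted p = 0.811), and the zinc finger repressor STZ and the factor WRKY53 had differences of -0.24 ± 0.35 and -0.01 ± 0.50 (SE). The groups of STZ and of WRKY53 overlapped. Of 9 XTH genes, 0 were higher and 5 lower without overlap, none was called (limma, with 0 higher and 2 lower at an unadjusted p under 0.05), and the median change was -0.48. XTH16 had 5.75 and 5.55 on the volatile arrays and 6.19 and 6.27 on the control arrays (change -0.58 ± 0.24, SE; adjusted p = 0.807). Of 18 expansins, proteins that loosen the wall, 3 were higher and 8 lower without overlap (1 and 3 at an unadjusted p under 0.05), none was called and the median change was -0.35. EXLA1 had 4.68 and 4.51 on the volatile arrays and 6.08 and 5.85 on the control arrays (change -1.36 ± 0.37, SE; adjusted p = 0.429). The median over the 22746 probe sets was 0.00, and without scaling, where it was 0.31, the medians were -0.24 for the XTH genes and -0.04 for the expansins. Against the mean of the controls, the XTH median was -0.41 in each volatile replicate, and the expansin median was -0.43 in replicate 1 and -0.20 in replicate 2.

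Among families of detoxification, members without overlap lay in both directions. Of 11 tau-class glutathione transferases, 1 was higher and 3 lower without overlap (17.1% and 15.9% of all probe sets; 1 and 1 at an unadjusted p under 0.05), none was called and the median change was -0.18. GSTU25 had 2.29 and 2.00 on the volatile arrays and 4.13 and 4.27 on the control arrays (change -2.06 ± 0.86, SE; adjusted p = 0.801). Of 47 UGT glycosyltransferases, which attach sugars to hormones and foreign compounds, 12 were higher and 8 lower without overlap (2 and 2 at an unadjusted p under 0.05), none was called and the median was 0.05. UGT73C1 had 0.00 and 0.03 on the volatile arrays and 2.76 and 2.99 on the control arrays (change -2.86 ± 0.50, SE; adjusted p = 0.0728), and UGT71C3 had 4.74 and 4.33 on the volatile arrays and 3.06 and 3.04 on the control arrays (change 1.49 ± 0.49, SE; adjusted p = 0.577). The lower and the higher member were separated by more than their replicates in both cases. Of 23 cytochrome P450 genes, 7 were higher and 3 lower without overlap (2 and 0 at an unadjusted p under 0.05), with a median of 0.17.

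In families of chemical defence no member was called at 24 h. Of 20 BGLU beta-glucosidases, which release active compounds from stored sugar conjugates, 7 were higher and 1 lower without overlap (17.1% and 15.9% of all probe sets; 2 and 1 at an unadjusted p under 0.05) and the median change was 0.24. BGLU29, with 2.03 and 1.79 on the volatile arrays and 0.67 and 0.00 on the control arrays, and BGLU19, with 0.72 and 1.68 on the volatile arrays and both controls at the floor, led this list at low signal. BGLU40 was the member that lay below both controls, with 4.71 and 5.19 on the volatile arrays and 5.86 and 5.58 on the control arrays. Of 13 defensin-like PDF and LCR genes, 4 were higher and 0 lower without overlap (1 and 0 at an unadjusted p under 0.05), with a median of 0.27. PDF2.1 had 1.80 and 2.45 on the volatile arrays with both controls at the floor. Of 13 genes of anthocyanin and flavonoid synthesis listed, 5 had a named probe set. Of these 5, 1 was higher and 1 lower without overlap, and their median of -0.43 stood beside 3.24 at 48 h. DFR, which makes leucoanthocyanidins, had 1.92 and 2.72 on the volatile arrays and 2.29 and 3.21 on the control arrays at 24 h (change -0.43 ± 0.91, SE) and was higher by 3.51 at 48 h (adjusted p = 0.0289).

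In the groups given as a check no member was called. The nuclear photosystem genes had differences of -0.22 to 0.06 with a median of -0.06. Of these 7, 0 were higher and 2 lower without overlap (17.1% and 15.9% of all probe sets). The 8 autophagy genes had differences of -0.16 to 0.18, with 0 that did not overlap. TIP41, used as a reference gene in quantitative PCR, had 6.58 and 6.54 on the volatile arrays and 6.73 and 6.30 on the control arrays. The other such gene with a named probe set, SAND, had 6.25 and 6.58 on the volatile arrays and 6.69 and 6.95 on the control arrays. Both volatile arrays were below both controls (change -0.40 ± 0.17, SE; adjusted p = 0.804). The clock gene GI had 7.55 and 7.56 on the volatile arrays and 7.38 and 7.55 on the control arrays.

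The 48 h arrays share no sample with those of 24 h, so they show how the same genes stood a day later. All 10 genes with the largest increases at 24 h were also above 0 at 48 h, and 3 of them, SUFE2, AT3G23550 and AT4G24350, rose at 48 h by 1.70, 1.21 and 1.35 (adjusted p = 0.0208, 0.0406 and 0.035). Of the 24 probe sets with above-median signal that were at least 2-fold higher at 24 h, 22 were above 0 at 48 h and their median there was 1.24. Of the 88 that were at least 2-fold lower, 42 were above 0 at 48 h and their median there was -0.02. Among all probe sets with above-median signal, 48.5% were above 0 at 48 h. Across these, Pearson's r between the changes at 24 h and 48 h was 0.263, and over all probe sets it was 0.080.

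By the test of the difference itself, 23 probe sets had a different response at 48 h than at 24 h (0.101%), 15 with a higher response at 48 h (0.0659%) and 8 with a lower one (0.0352%). Among the named genes of these 23, UGT73C1 had the largest difference: its change was 2.34 at 48 h and -2.86 at 24 h, a difference of 5.20 ± 0.64 (SE; adjusted p = 0.00957). Its 24 h volatile arrays were at or near the floor, with 0.00 and 0.03, and its 48 h controls averaged 0.65 ± 1.13 (SD), so its size is uncertain. For AT1G43910 the difference was 4.10 ± 0.46 (SE; adjusted p = 0.00761). NDB2, an alternative NADH dehydrogenase of mitochondria, averaged 4.65 in volatile samples and 6.03 in controls at 24 h, and 6.76 in volatile samples and 5.84 in controls at 48 h, a difference of 2.30 ± 0.30 (SE; adjusted p = 0.0109). SWEET16, a sugar transporter of the vacuole, averaged 6.09 in volatile samples and 5.96 in controls at 24 h, and 4.16 in volatile samples and 5.51 in controls at 48 h, a difference of -1.48 ± 0.24 (SE; adjusted p = 0.0482). NDB2 and SWEET16 were named after their values were seen. Of the 35 probe sets of the study's quantitative PCR, 0 were among the 23 (limma; 5 differed at an unadjusted p under 0.05), although their median change was higher at 48 h. The number of differing probe sets was 40 and 42 without volatile replicate 1 and 2, 36 and 26 without control replicate 1 and 2, and 5, all positive, without scaling.

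**Figure D4:**
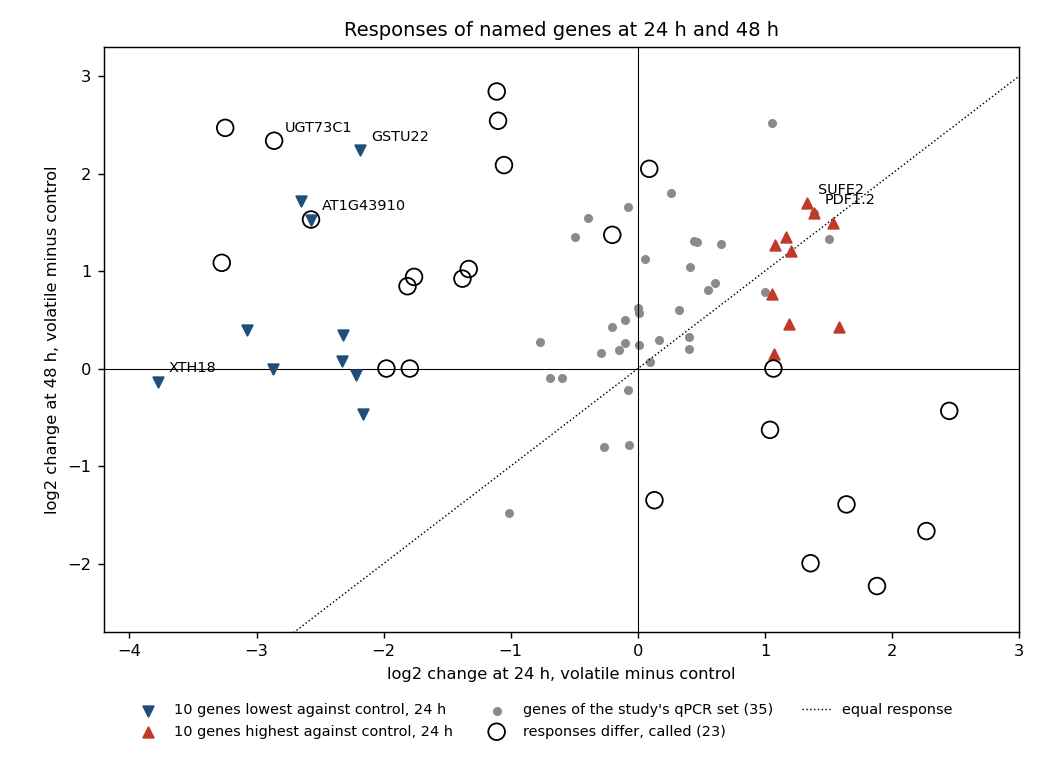
Log2 change at 48 h against log2 change at 24 h, volatile minus control, for the 10 genes lowest and the 10 highest against control at 24 h, the 35 probe sets of the study's quantitative PCR set and the 23 probe sets whose responses differed (open circles). The 10 highest at 24 h all lie above 0 at 48 h, while 6 of the 10 lowest do.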

How the data were processed

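The intensity values are MAS5 signals on a linear scale that the authors deposited for 16 ATH1 arrays. The scaling target, and whether the GeneSpring normalization named in the methods was applied to them, are not given in the sources used here. The methods name SAM for triplicates and no test for the 24 h duplicates.

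The 22810 probe sets include 64 Affymetrix controls, which were dropped. Values were quantile-scaled over the 16 arrays, floored at 1 and converted to log2. limma 3.58.1 in R 4.3.3 fitted 6 group means with eBayes and its trend option. The Benjamini-Hochberg adjustment ran over the 22746 probe sets left. SE is the moderated standard error, with 10 residual degrees of freedom shared over all groups. Called means an adjusted p of at most 0.05 and at least 2-fold. The script was tested on simulated data. Probe sets were named from the platform annotation: 13513 match 1 gene, 503 several and 8730 are unnamed here, and 13436 of the loci were found in RefSeq TAIR10.1, used for names only.

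Named are every called probe set, the 10 highest and 10 lowest changes among non-overlapping probe sets of above-median signal with 1 gene, the study's quantitative PCR set, and 2 to 4 members of each list with the largest change, beside members that stand for a step of a pathway. Lists go by locus or by symbol, in place of lists by description, which the reference tables do not hold. The members and lists were chosen with earlier results of these data known. Alternatives tried were no scaling, median scaling, log2 before scaling, a pseudocount of 16 in place of the floor, only the 60% of probe sets with most signal, fewer arrays in the fit, a replicate block, no variance trend, other fold thresholds and leaving out each array. The plots were drawn with matplotlib 3.10.9.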

Additional observations from a re-analysis of the deposited data

Results flagged for a closer look

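The response at 48 h differed from that at 24 h, by the test of the difference in the fit over all arrays, for 23 probe sets. Among the named probe sets, the change at 48 h minus that at 24 h was 5.20 for UGT73C1, 4.36 for 250983_at, 4.10 for AT1G43910, 1.98 for AT3G30240, 1.79 for AT3G30810, -1.07 for 260093_at and -2.88 for 250717_at on the log2 scale. For UGT73C1, 250983_at and AT1G43910 the 24 h change was negative and the 48 h change positive. The 24 h volatile arrays of UGT73C1 and 250983_at were at or near the floor. For AT3G30240, AT3G30810 and 260093_at all 48 h groups were at the floor, so the difference is that of a faint signal on the 24 h arrays. For 250717_at the 24 h controls were at or near the floor and the other groups of the volatile experiment between 2.01 and 2.51 on average.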

How the results depend on the processing

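With 2 arrays a group, the number of arrays and the signal limit the precision. In each 25% of the probe sets by signal, the SD between replicates, 0.20 to 0.78, was close to that of the changes, 0.23 to 0.82. The counts of 5 called up and 7 called down became 1 and 3 without scaling, 2 and 12 with median scaling, 8 and 10 with log2 before scaling, 0 and 2 with log2 of the value plus 16, 1 and 12 among the upper 60% of probe sets, 0 and 0 with the 4 arrays of 24 h alone, 7 and 11 without the variance trend, and 6 and 6 with the 10 arrays of the volatile experiment. The fold thresholds left both counts as they were. Leaving out 1 array gave 5 to 23 up and 3 to 38 down. Where an array was left out, the lone sample is assumed to vary like the other groups. The share of probe sets with both volatile arrays above both controls was 47.1% and below both 5.33% without scaling. The cause of these shifts was not tested.

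The number of probe sets whose responses at 24 h and 48 h differed, 23, became 5 without scaling, 35 with log2 of the value plus 16 and 10 with the 10 arrays of the volatile experiment, and 26 to 42 without 1 array, a choice made after seeing the data. The probe sets of above-median signal at least 3-fold lower, 32, became 17 without scaling, 14 with signal judged on the mean of the 4 arrays of 24 h and 25 to 69 without 1 array. Those at least 3-fold higher, 0, became 11 without scaling, 2 with median scaling, 1 with log2 before scaling, 1 with signal judged on the other 12 arrays and 0 to 25 without 1 array. These alternatives were also chosen after seeing the data, and above-median signal was judged on the arrays left.

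The labels and methods do not say whether same-numbered samples were handled as pairs, and the main fit has no pairing. The deviations of same-numbered samples at 24 h had a correlation of -0.01 across probe sets. This cannot decide the question, since each group gives a single difference between its samples. With the replicate number as a block, 0 were called up, 1 down and 0 for the difference, and 1 of the 12 called probe sets was still called.

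For 65 named probe sets, 832 values under alternatives were computed. Of these, 729 kept direction and side of the threshold, 79 fell below it, 11 passed it and 13 moved by more than their error. Of those called, 0 changed direction. Only the 12 called probe sets could fall below the threshold, and most of the 65 were not called. The 729 are therefore no measure of how stable the calls were. Of the 12, 4 were still called without scaling, 8 with median scaling, 1 with log2 of the value plus 16 and 12 with log2 before scaling.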
